A study of Mus musculus with 4 samples.

Results

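Dentate gyrus granule neurons were studied in single-nucleus RNA-seq libraries of hippocampi from wild-type (WT) mice and from Cyfip2+/R87C knock-in (KI) mice, which carry the R87C change in 1 of the Cyfip2 alleles of every cell. A nucleus was counted as a granule neuron when at least 3 of the 6 genes Prox1, Glis3, Stxbp6, Trpc6, Dsp and C1ql2 were detected in it, when Gad1 and Gad2 together gave at most 1 UMI (unique molecular identifier, 1 counted transcript), and when fewer than 2 of 6 glial genes (Mobp, Mog, Prr5l, Gja1, Fgfr3, Inpp5d) and fewer than 3 of 5 CA1 genes (Fibcd1, Mpped1, Wfs1, Man1a, Gm2164) were seen. This rule chose 10185 of the 55295 barcodes that had at least 500 genes and under 5% mitochondrial UMIs, out of 55640 barcodes in all. WT replicates 1 and 2 gave 3421 and 2818 granule nuclei, and KI replicates 1 and 2 gave 1946 and 2000. Each genotype had 2 mice of 28 weeks on a C57BL/6N background, with WT littermates as controls, and each mouse gave 1 library from the frozen hippocampi of both hemispheres. The labels name no sex and put all libraries in the same batch, and they write the allele of KI replicate 2 as R88C in 1 field and R87C in another. It was kept in the KI group named by its genotype label. Because the allele is present in all cells, changes set by a granule neuron's own allele and changes set by its surroundings cannot be told apart in this design.

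Granule neurons are the principal cells of the dentate gyrus. They receive most of the cortical input to the hippocampus on their dendrites, fire sparsely, and send their axons, the mossy fibres, to CA3 pyramidal neurons and to interneurons of the hilus. New granule neurons are added in adult life, and mature ones hold large amounts of the calcium buffer calbindin. In rodent models of epilepsy these neurons are known to change their neuropeptides, growth factors, receptors and calcium buffers, and to sprout recurrent mossy fibres. CYFIP2 is a subunit of the WAVE regulatory complex, which steers the assembly of branched actin.

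The name of the class was checked with genes that the rule did not use. Rfx3, Maml2 and Lrrtm4, which are abundant in granule neurons, stood at 1198 to 1578, 988 to 1215 and 6285 to 7318 CPM (counts of UMIs scaled to a common total within the class and library) in the granule nuclei of the 4 libraries. In CA1 nuclei, chosen by the mirror of the rule, they stood at 227 to 235, 54.0 to 88.1 and 1747 to 2208 CPM. Of the genes that made the rule, which are given without a test, Dsp stood at 66.4 and 55.3 CPM in WT, against 12.2 and 25.0 CPM in KI, and Prox1 at 284 and 287 CPM in WT, against 245 and 204 CPM in KI. Glis3 was at 869 and 807 CPM in WT, against 660 and 635 CPM in KI. Stxbp6 and C1ql2 were above WT in both KI libraries, and Trpc6 overlapped. Just inside the threshold, 1544, 1252, 904 and 985 nuclei of WT 1, WT 2, KI 1 and KI 2 had exactly 3 markers, with a median of 3673 to 4372 UMIs. Just outside it, 1318, 1108, 881 and 1064 barcodes had exactly 2 of the 6 markers, with a median of 3169 to 4182 UMIs.

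Depth per nucleus was similar between the genotypes, and the sums over nuclei were smaller in KI. A granule nucleus held a median of 4234 and 4678 UMIs in WT and 4900 and 4564 in KI. The class sums were 16352467 and 14955583 UMIs in WT, against 10711616 and 10789525 in KI. The share of Malat1, a non-coding RNA kept in the nucleus, was 8.27% and 8.30% of granule UMIs for WT, against 16.3% and 13.6% for KI (exact two-sided permutation p = 0.333, the smallest p that 2 against 2 libraries allow). Leaving Malat1 out before scaling gave 1273 called genes against 1278 with it. The KI libraries differed more from each other than the WT libraries: over 9275 genes of at least 10 CPM, the SD of the log2 difference between the pair was 0.15 in WT and 0.36 in KI. At most 6 granule barcodes of a library were also granule barcodes of another library.

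Cyfip2, the targeted gene, was counted at 196 and 199 CPM in WT, against 194 and 177 CPM in KI. Both KI values were below both WT values by this plain scaling, by which the log2 difference (KI over WT) was -0.09. With TMM factors, used for all fitted log2 differences, it was 0.04 ± 0.11 (SE, n = 2 and 2) with an edgeR adjusted p of 0.849, so no direction is given. Counts per gene do not separate the point-mutated from the WT allele, so this level does not check the labels. Of the 10 genes of the WAVE complex, 0 passed edgeR's test and 0 passed DESeq2's, 3 had an unadjusted p under 0.05, and the log2 differences lay between -0.36 and 0.78.

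The comparison of KI with WT asked which genes changed in granule neurons. Of 16572 genes tested, 1278 (7.71%) passed an edgeR adjusted p of 0.05. They were 647 higher in KI (3.90%) and 631 lower (3.81%, of which 2 are genes of the rule), and the median log2 difference over all genes tested was 0.01. The KI libraries did not overlap the WT libraries in any of the 1278 called genes, and this was so in 62.5% of all genes tested. Scaled to library totals in place of TMM factors, 468 genes were higher and 855 lower, and the median of all genes was -0.12. At least 4-fold differences were found for 158 of the genes that rose and 58 of those that fell. KI replicate 1 lay farther from WT than KI replicate 2 in 403 of the 647 higher genes and in 534 of the 631 lower genes. The number of calls was 266 when WT replicate 1 was left out and 345 when WT replicate 2 was, but 3423 when KI replicate 1 was left out and 6975 when KI replicate 2 was.

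Gpnmb, Pappa, Col6a1 and Sorcs1 led the protein-coding genes that rose in KI. The genes named for their size were taken from the 9275 with a mean of at least 10 CPM, of which 408 rose (4.40%) and 506 fell (5.46%). Gpnmb (ENSMUSG00000029816, chr6:49036546-49070929, plus strand), a transmembrane glycoprotein of lysosomes and melanosomes best known in the brain from reactive microglia, was at 2.996 and 1.67 CPM in WT, against 41.2 and 25.2 CPM in KI. The log2 difference was 3.95 ± 0.37 (edgeR adjusted p = 0.00563). Pappa (chr4:65124174-65357509), a protease that cleaves insulin-like growth factor binding proteins, was at 4.77 and 5.08 CPM in WT, against 55.1 and 59.1 CPM in KI, for a log2 difference of 3.66 ± 0.14 (edgeR adjusted p = 0.000612). Neither gene's KI libraries came near the WT range, and a lack of overlap was a condition for naming genes by size.

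Sorcs1 (chr19:50143299-50678646), a sorting receptor of the Vps10p family that moves receptors and synaptic proteins between membranes, also rose. It stood at 32.0 and 35.8 CPM in WT, against 323 and 305 CPM in KI, 10.1-fold higher (log2 3.34 ± 0.12, edgeR adjusted p = 0.000612). Col6a1, a chain of collagen VI, rose by a log2 of 3.59 ± 0.21, Adamts18, a secreted metalloprotease, by 3.26 ± 0.32, and Mylk3, a myosin light chain kinase, by 3.07 ± 0.16. Mamdc2, a secreted proteoglycan, rose by 3.22 ± 0.28. The other leading genes are annotated as non-coding: A830012C17Rik (3.73 ± 0.23), Gm34237 (3.28 ± 0.61), Gm28578 (3.19 ± 0.25), Gm30551 (3.07 ± 0.24) and the antisense transcript Far2os2 (3.07 ± 0.17), whose counts depend on how strand was used in counting, which is not given in the sources used here.

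A830012C17Rik lies at chr4:4138321-4188703 on the plus strand and overlaps the start of Penk (chr4:4133531-4138819, minus strand), which also rose. If strand was not used in counting, reads from the overlap of the 2 genes cannot be told apart. Gm34237 rested on unequal KI libraries, at 35.3 CPM in KI replicate 1 and 10.5 CPM in KI replicate 2, against 2.39 and 2.81 CPM in WT, and leaving out KI replicate 1 or 2 gave log2 differences of 2.10 and 3.93.

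The genes that fell furthest in KI included a transcription factor, receptors and secreted factors. Onecut1, a homeodomain transcription factor, was at 27.1 and 22.0 CPM in WT, against 1.68 and 3.80 CPM in KI (log2 -3.04 ± 0.31, edgeR adjusted p = 0.00628). Tspan18 (chr2:93201760-93334505), a tetraspanin, was at 120 and 125 CPM in WT, against 14.8 and 22.8 CPM in KI (log2 -2.58 ± 0.18, edgeR adjusted p = 0.00355). Grik3 (chr4:125490700-125714173), which encodes the kainate receptor subunit GluK3, was at 80.5 and 89.8 CPM in WT, against 12.0 and 19.4 CPM in KI (log2 -2.32 ± 0.20, edgeR adjusted p = 0.00452). In each of these genes KI replicate 1 was the lower of the KI libraries and the WT libraries were close together. Without KI replicate 2 the log2 difference of Onecut1 was -3.70.

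Smo, the transducer of hedgehog signals, fell by 2.52 on the log2 scale (SE 0.20), and Igfbp5, an insulin-like growth factor binding protein, by 2.51 (SE 0.26). Gmnc, a regulator of multiciliated cell fate, was at 26.4 and 30.4 CPM in WT, against 1.77 and 6.21 CPM in KI (log2 -2.71 ± 0.41). Its KI libraries were far apart, and leaving out KI replicate 1 or 2 gave log2 differences of -2.10 and -3.82. Gfra2, the neurturin receptor, was at 72.8 and 75.1 CPM in WT, against 7.66 and 21.7 CPM in KI (log2 -2.22 ± 0.38). Fgf10, a ligand of the fibroblast growth factor family, was at 25.0 and 24.0 CPM in WT, against 3.45 and 6.77 CPM in KI (log2 -2.14 ± 0.26). Capn3, a calpain protease (-2.09 ± 0.39), Mdga1, a synaptic adhesion regulator that binds neuroligin (-2.08 ± 0.15), Doc2b, a calcium sensor of vesicle release (-2.06 ± 0.22), and the non-coding Gm31816 (-2.09 ± 0.19) complete the 12. Without KI replicate 2 the log2 differences of Gfra2 and Capn3 were -3.10 and -3.08.

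**Figure D1:**
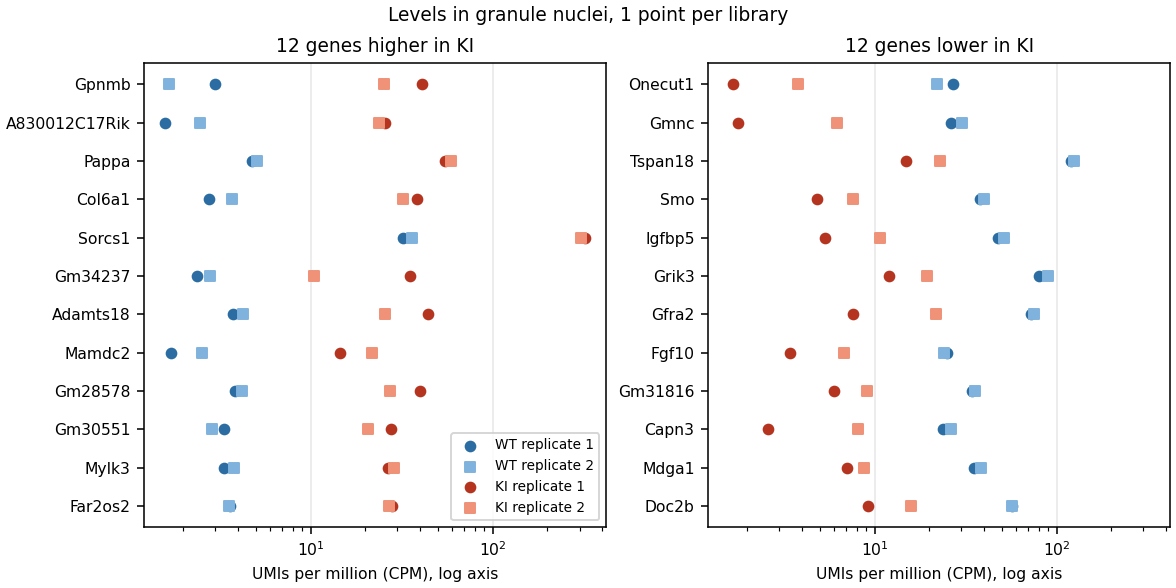
CPM in granule nuclei (log axis) for the 12 genes with the largest rise (left) and the largest fall (right) in KI among genes of at least 10 CPM, with 1 point per library. In all 24 genes both KI libraries lie outside the WT range, which was a condition of their choice. In Gfra2 the KI points, at 7.66 and 21.7 CPM, are farther apart than the WT points.

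Several genes that mark mature granule neurons fell, and no gene of immature granule neurons passed the test. Of 12 further granule markers that the rule did not use, 0 rose and 6 fell, with a median log2 difference of -0.48. Calb1 (chr4:15881264-15908064), the gene of calbindin, was at 147 and 143 CPM in WT, against 37.3 and 55.9 CPM in KI, 2.86-fold lower (log2 -1.52 ± 0.17, edgeR adjusted p = 0.00742). Tdo2, which encodes a tryptophan-degrading enzyme, fell by 1.47 on the log2 scale (SE 0.21) and Il16, a cytokine precursor, by 1.63 (SE 0.16). The transcription factors Bcl11b (-0.68 ± 0.13) and Zbtb20 (-0.47 ± 0.07) fell less, and Rfx3 did not pass the test (-0.23 ± 0.08, edgeR adjusted p = 0.118). Of 9 tested genes of immature granule neurons 0 passed edgeR's test, 0 passed DESeq2's and 1 had an unadjusted p under 0.05. Dcx, which encodes a microtubule protein of migrating young neurons, had a log2 difference of 0.57 ± 0.15 (edgeR adjusted p = 0.0682), and Sox11 and Neurod1, transcription factors of young neurons, had log2 differences of 0.13 ± 0.12 and -0.46 ± 0.24. Of 4 genes listed for the dorsal pole of the dentate gyrus, Spata13 (-1.99 ± 0.23) and Stra6 (-1.12 ± 0.25) fell and 0 rose. The log2 differences of this list reached 0.90. Of 5 genes for the ventral pole Trhr (-1.35 ± 0.26) fell and 0 rose, while the list's median was 0.34 and its highest value 0.64. Neither list moved in 1 direction.

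Genes induced by neuronal activity did not move as 1 group. Of 19 tested immediate early transcription factors, which are switched on within minutes of firing, 1 rose and 2 fell. These are 5.26% and 10.5%, against 3.90% and 3.81% of all genes tested, and the list's median log2 difference was -0.07. Nr4a3 was at 13.0 and 13.2 CPM in WT, against 4.76 and 4.08 CPM in KI (log2 -1.44 ± 0.20, edgeR adjusted p = 0.0135), Klf10 fell by 1.75 on the log2 scale (SE 0.17), and Ier5 rose by 1.17 (SE 0.25). Fos was near the floor of detection, at 1.22 and 2.54 CPM in WT, against 0.373 and 0.278 CPM in KI (edgeR adjusted p = 0.0666), and Egr1 (-1.02 ± 0.24) and Npas4 (-1.20 ± 0.44) did not pass either.

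Among 25 tested effector genes that act downstream of activity, 7 rose and 2 fell, with a median of 0.41. Bdnf (chr2:109674700-109727007), the gene of brain-derived neurotrophic factor, was at 56.6 and 56.1 CPM in WT, against 143 and 148 CPM in KI, 2.81-fold higher (log2 1.49 ± 0.10, edgeR adjusted p = 0.00299). Nptx2, a secreted pentraxin that gathers AMPA receptors, was at 2.87 and 4.28 CPM in WT, against 10.1 and 12.7 CPM in KI (log2 1.80 ± 0.25). Rgs4, a brake on G-protein signals, rose by 1.30 (SE 0.17), and Sorcs3, a relative of Sorcs1, also rose. Acan, the core protein of aggrecan in perineuronal nets, also passed, with 1.96 and 1.67 CPM in WT against 4.57 and 4.54 CPM in KI. Arc, which drives the uptake of AMPA receptors, was at 4.83 and 3.81 CPM in WT, against 1.31 and 0.649 CPM in KI (log2 -2.01 ± 0.40, edgeR adjusted p = 0.035), and Homer1, a postsynaptic scaffold, fell by 0.54 (SE 0.10). Without KI replicate 1 the log2 difference of Arc was -2.64. Bdnf and Nptx2 thus rose while Arc and Homer1 fell. The KI values of Arc were near the floor of detection, and Arc was also found in a smaller share of oligodendrocyte nuclei in KI. After thinning to a common depth, 13.9% and 14.5% of WT and 10.9% and 10.3% of KI granule nuclei held Homer1. In oligodendrocyte nuclei the Homer1 shares were 17.8% and 12.5% in WT and 9.82% and 12.3% in KI. In WT replicate 1 and KI replicate 2 the granule share of Homer1 therefore cannot be told from background.

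Dense-core vesicles store peptides for release, and both their cargo and the granins that fill them included genes that rose. Of 11 tested neuropeptide genes 2 rose and 1 fell. Penk, the precursor of enkephalins, was at 4.53 and 3.74 CPM in WT, against 30.1 and 26.9 CPM in KI, 7.49-fold higher (log2 2.91 ± 0.19, edgeR adjusted p = 0.00299). Npy, the gene of neuropeptide Y, was at 13.3 and 13.0 CPM in WT, against 29.9 and 30.4 CPM in KI (log2 1.32 ± 0.13, edgeR adjusted p = 0.00605). Cck, the cholecystokinin precursor, was at 85.2 and 91.4 CPM in WT, against 41.6 and 53.7 CPM in KI (log2 -0.77 ± 0.13). The peptide genes of this list therefore moved in both directions. The shares of oligodendrocyte nuclei with Penk, Npy and Cck moved the same way, and are given with the other shares of nuclei.

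Of 11 granins and peptide-processing genes, 4 rose and 0 fell, with a median log2 difference of 0.49. They were the granins Scg2, at 50.2 and 44.1 CPM in WT, against 91.1 and 89.4 CPM in KI (log2 1.06 ± 0.12), and Chgb, at 83.4 and 79.6 CPM in WT, against 130 and 142 CPM in KI (log2 0.86 ± 0.10), the convertase Pcsk2, at 446 and 456 CPM in WT, against 712 and 783 CPM in KI (log2 0.85 ± 0.08), and the amidating enzyme Pam (log2 0.63 ± 0.10). The granin and convertase libraries of KI were close together and above both WT libraries. The shares of oligodendrocyte nuclei with Scg2 and Chgb, which limit these results, are given with the other shares of nuclei. The promoters of Scg2 and Chgb are shown because both granins rose (RefSeq, GRCm38.p6, 250 bases before to 50 after the gene's start, 5′ to 3′ on the gene's strand). Scg2 lies on the minus strand at chr1:79439977-79440276 and Chgb on the plus strand at chr2:132781392-132781691, and capitals mark the cAMP response element TGACGTCA, searched on both strands.
Scg2: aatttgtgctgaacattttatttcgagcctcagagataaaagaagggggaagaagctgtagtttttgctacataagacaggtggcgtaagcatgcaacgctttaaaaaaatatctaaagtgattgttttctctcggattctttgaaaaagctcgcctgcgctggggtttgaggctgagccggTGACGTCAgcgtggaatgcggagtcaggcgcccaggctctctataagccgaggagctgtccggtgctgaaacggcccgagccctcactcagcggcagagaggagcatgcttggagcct
Chgb: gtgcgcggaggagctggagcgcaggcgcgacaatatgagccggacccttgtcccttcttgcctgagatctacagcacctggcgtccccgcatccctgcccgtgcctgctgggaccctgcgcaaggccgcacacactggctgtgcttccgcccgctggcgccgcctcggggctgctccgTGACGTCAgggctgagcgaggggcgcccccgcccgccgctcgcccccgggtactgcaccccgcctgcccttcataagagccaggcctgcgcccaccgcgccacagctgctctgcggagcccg
The element starts 68 bases before the start of Scg2 and 72 bases before that of Chgb. It was present in 3 of the 9 genes of this list with a promoter in the table. The third was Pcsk1, a convertase that did not pass the test (log2 0.00 ± 0.28), while Pcsk2 and Pam, which rose, did not hold it. Across the fit it was held by 18 of 463 genes that rose (3.89%), by 5 of 441 that fell (1.13%) and by 397 of 12012 tested genes (3.31%), and by 2.03% of the genes in the whole promoter table. The AP-1 element TGANTCA was held by 9.72% of the genes that rose, 5.90% of those that fell, 6.33% of those tested and 8.97% of the whole table. These are counts of letters in the window and show no binding.

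Neurotrophins and their receptors moved in both directions. Of 9 tested, 3 rose (Bdnf, Sorcs1, Sorcs3) and 3 fell (Ntf3, Ntrk2, Sorcs2). Ntf3, the gene of neurotrophin-3, was at 55.8 and 55.2 CPM in WT, against 8.31 and 22.3 CPM in KI (log2 -1.74 ± 0.36, edgeR adjusted p = 0.0396). Without KI replicate 2 its log2 difference was -2.57. Ntrk2, whose product TrkB is the receptor of BDNF, fell by 0.52 (SE 0.11). Within the sorting receptors, Sorcs3 was at 115 and 130 CPM in WT, against 334 and 299 CPM in KI, while Sorcs2, which takes part in proneurotrophin signalling, was at 125 and 143 CPM in WT, against 51.4 and 61.5 CPM in KI (log2 -1.12 ± 0.12). The 3 family members thus separated the genotypes in opposite directions. Of 13 tested fibroblast growth factors and receptors 0 rose and 2 fell, Fgf10 and the receptor Fgfr1 (log2 -0.77 ± 0.13). The falls are 15.4% of this list, against 3.81% of all genes tested.

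Among glutamate receptors, more AMPA receptor genes fell than rose, and metabotropic receptor genes that passed the test rose. AMPA receptors carry most of the fast excitatory input, and auxiliary proteins set their gating and traffic. Of 16 tested subunits and auxiliary genes 1 rose and 6 fell, with a median of -0.43. Gria1, the GluA1 subunit, was at 2914 and 2690 CPM in WT, against 1837 and 2045 CPM in KI (log2 -0.41 ± 0.08, edgeR adjusted p = 0.0373), whereas Gria3, the GluA3 subunit, rose by 0.46 (SE 0.10). Among the auxiliary genes Cnih3 fell by 0.97 (SE 0.13), Shisa9 by 0.85 (SE 0.12) and Cacng8 by 0.78 (SE 0.11).

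Of 7 metabotropic glutamate receptors, which signal through G proteins, 3 rose and 0 fell. Grm3 was at 64.4 and 62.2 CPM in WT, against 113 and 160 CPM in KI (log2 1.23 ± 0.15), Grm8 at 75.6 and 99.1 CPM in WT, against 318 and 187 CPM in KI (log2 1.67 ± 0.28), and Grm7 rose by 0.40 (SE 0.07). The KI libraries were unequal for Grm8, but both stood above WT. Of 6 tested NMDA receptor subunits 1 fell, Grin3a (log2 -1.13 ± 0.21), and of 7 kainate receptor genes 1 fell, Grik3. Each list thus rests on 1 gene, 16.7% and 14.3% of its members tested, against 3.81% of all genes tested.

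For inhibition, 3 of 12 tested GABA-A receptor subunits rose and 2 fell. Gabrd, the delta subunit of the extrasynaptic receptors that carry tonic inhibition in granule neurons, was at 29.7 and 30.1 CPM in WT, against 6.72 and 14.5 CPM in KI (log2 -1.38 ± 0.29, edgeR adjusted p = 0.0417). Without KI replicate 2 its log2 difference was -1.98. Gabrg3 fell by 0.88 (SE 0.10). Gabrb2, a beta subunit, was at 410 and 428 CPM in WT, against 541 and 551 CPM in KI (log2 0.51 ± 0.08, edgeR adjusted p = 0.0218).

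Among ion channels, 5 of 40 tested potassium channel genes rose and 9 fell. Kcnh5, of the ether-a-go-go type, was at 52.5 and 44.5 CPM in WT, against 6.72 and 16.2 CPM in KI (log2 -1.97 ± 0.33, and -2.69 without KI replicate 2). Kcnip4, an auxiliary subunit of A-type channels, rose by 0.54 (SE 0.08) and Kcnma1, the BK channel, by 0.50 (SE 0.10). Of 26 tested HCN, sodium and calcium channel genes 2 rose (7.69%) and 3 fell (11.5%), against 3.90% and 3.81% of all genes tested.

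Of 20 tested genes of calcium handling 5 fell, 1 rose and 14 did not pass, with a median log2 difference of -0.09. Itpr1 (chr6:108213096-108551109), the receptor that releases calcium from the endoplasmic reticulum, was at 359 and 347 CPM in WT, against 56.7 and 118 CPM in KI, 3.73-fold lower (log2 -1.90 ± 0.29, edgeR adjusted p = 0.0169). Ryr1, another release channel, fell by 1.48 (SE 0.23), and Camk2a, the alpha subunit of calcium/calmodulin kinase II, was at 1388 and 1389 CPM in WT, against 894 and 847 CPM in KI (log2 -0.55 ± 0.09). Camk2d, its delta subunit, rose by 1.36 (SE 0.25). With Calb1, the genes of a buffer, of 2 release channels and of a main kinase were therefore lower in KI, while most of the list did not pass.

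**Figure D2:**
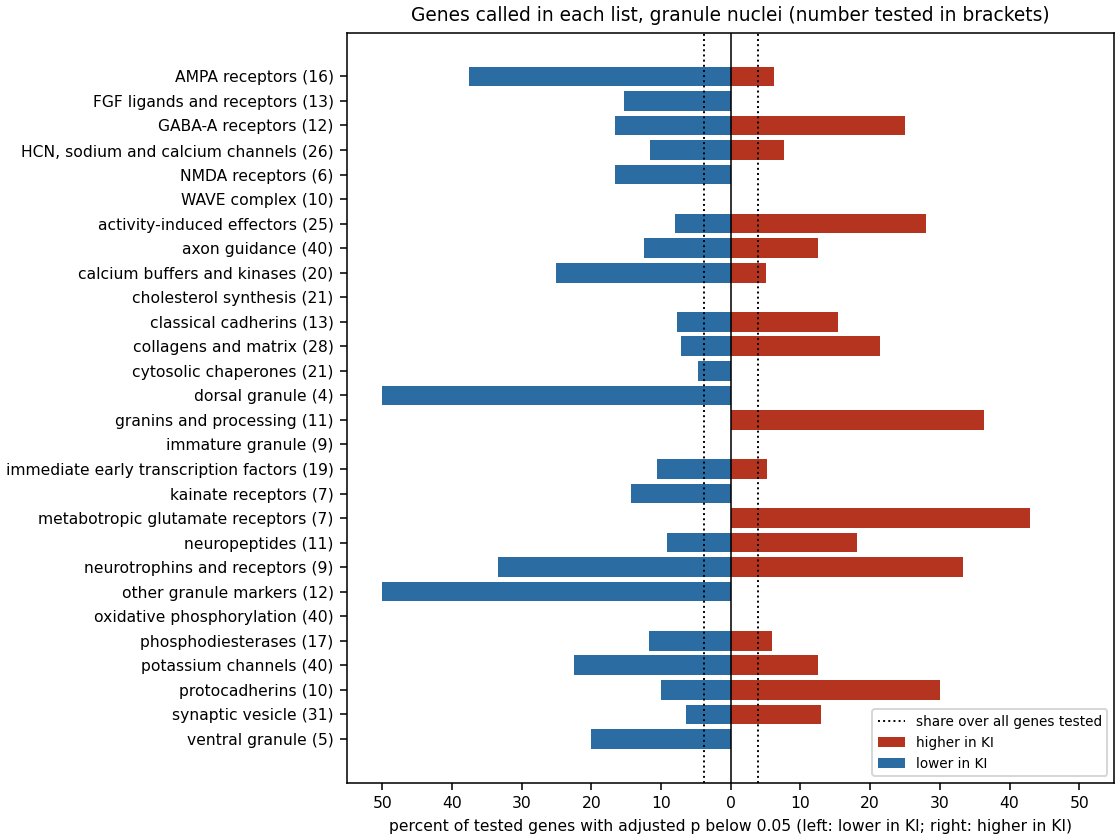
Percent of the tested genes of each list that were higher (right) or lower (left) in KI granule nuclei at an edgeR adjusted p of 0.05, with the number tested in brackets. Dotted lines give the shares over all genes tested, 3.90% higher and 3.81% lower, and the lists of WAVE complex, cholesterol synthesis, oxidative phosphorylation and immature granule genes hold no called gene.

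Genes of axon guidance and cell adhesion changed in both directions. Of 40 tested guidance genes 5 rose and 5 fell, with a median log2 difference of 0.03. Unc5d, a netrin receptor, was at 199 and 230 CPM in WT, against 901 and 812 CPM in KI, 4.37-fold higher (log2 2.13 ± 0.12, edgeR adjusted p = 0.00299). Dcc, the other netrin receptor of this list that passed, was at 1109 and 1149 CPM in WT, against 254 and 371 CPM in KI, 3.33-fold lower (log2 -1.73 ± 0.15, edgeR adjusted p = 0.00505). The 2 receptors therefore changed in opposite directions, each with no overlap between the genotypes.

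Sema3a, a repellent semaphorin, was at 4.46 and 4.41 CPM in WT, against 34.6 and 28.6 CPM in KI (log2 2.96 ± 0.19), and Sema3e rose by 1.39 (SE 0.16). Nrp1, a receptor subunit for Sema3a, fell by 1.02 (SE 0.20), and Slit1 by 0.62 (SE 0.09). Ntng1, a membrane-bound netrin, rose by 0.42 (SE 0.08). Sema3a and Sema3e thus rose while Nrp1 fell.

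Among 13 classical cadherins 2 rose and 1 fell, led by Cdh7 at 6.30 and 7.62 CPM in WT, against 38.3 and 43.4 CPM in KI (log2 2.68 ± 0.15). Of 10 tested protocadherins 3 rose and 1 fell, with Pcdh7 at 155 and 202 CPM in WT, against 474 and 503 CPM in KI (log2 1.58 ± 0.14) and Pcdh15 at 90.8 and 154 CPM in WT, against 289 and 460 CPM in KI (log2 1.73 ± 0.28). Of 28 tested collagen and matrix genes 6 rose and 2 fell, with a median of 0.39, and they included Col6a1, Acan and the proteoglycan Spock3 (log2 1.08 ± 0.16).

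Of 31 tested synaptic vesicle genes 4 rose (12.9%) and 2 fell (6.45%), Doc2b furthest. Of 17 phosphodiesterases 1 rose (5.88%) and 2 fell (11.8%), and of all genes tested 3.90% rose and 3.81% fell. Of 40 genes of oxidative phosphorylation (median log2 -0.02) 0 passed edgeR's test, 0 passed DESeq2's and 2 had an unadjusted p under 0.05. Of 21 genes of cholesterol synthesis (median 0.42) 0 passed edgeR's test, 1 passed DESeq2's and 6 had an unadjusted p under 0.05. Of 21 cytosolic chaperones 0 rose and 1 fell, Hspa8 (log2 -0.88 ± 0.17), which encodes the constitutive HSC70. This is 4.76% of the list, near the 3.81% of all genes tested that fell.

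Whether the changes differed from those of other principal neurons was asked with CA1 nuclei of the same libraries. There 507 of 16237 tested genes (3.12%) passed, 321 higher (1.98%) and 186 lower (1.15%), in 5761 nuclei. The difference between the classes in their response to genotype was fitted as an interaction, blocked by library, and passed for 1443 of 17144 genes (8.42%), of which 720 had a higher and 723 a lower difference in granule than in CA1 nuclei. Of the genes called in granule nuclei, 255 of 646 that rose and 311 of 631 that fell passed this test. In CA1 nuclei 118 of the granule genes that rose were also called higher (18.2%), and 63 of those that fell were also called lower (9.98%). Called the other way in CA1 nuclei were 4 and 11 of them. Both classes come from the same mice. Some leading genes were called in the same direction in both: the log2 differences in granule and CA1 nuclei were 3.34 and 1.13 for Sorcs1, -2.14 and -0.99 for Fgf10, -2.09 and -1.78 for Capn3, and -1.73 and -0.90 for Dcc. Without WT replicate 1 the term passed for 369 genes, without WT replicate 2 for 360, without KI replicate 1 for 1888 and without KI replicate 2 for 2610.

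Among genes with a mean of at least 10 CPM in both classes, the 5 with the largest positive term were Cdh7, Sema3a, Gm30094, Gm28578 and Mapk4. Gm30094 is annotated as antisense, so its counts, like those of Far2os2, depend on the use of strand. Mapk4, an atypical MAP kinase, was at 102 and 103 CPM in WT, against 238 and 248 CPM in KI granule nuclei. In CA1 nuclei it was at 129 and 129 CPM in WT, against 60.2 and 77.5 CPM in KI (difference of log2 values 2.22 ± 0.11, edgeR adjusted p = 1.61e-07). Cdh7 rose in granule nuclei and was at 20.7 and 26.0 CPM in WT, against 19.3 and 23.1 CPM in KI CA1 nuclei (difference 2.75 ± 0.14). Mapk4 thus went in opposite directions in the 2 classes, and Cdh7, which rose in granule nuclei, had a log2 difference of -0.07 ± 0.16 in CA1 nuclei.

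Under the same limit, the 5 genes with the largest negative term were Ackr3, Fndc1, Flt3, Sdk1 and Trabd2b. Ackr3, an atypical chemokine receptor that takes up CXCL12, was at 26.0 and 30.2 CPM in WT, against 7.10 and 8.71 CPM in KI granule nuclei. In CA1 nuclei it was at 8.46 and 8.46 CPM in WT, against 18.3 and 18.0 CPM in KI (difference -2.88 ± 0.18, edgeR adjusted p = 5.30e-07). Sdk1, a synaptic adhesion molecule, did not pass in granule nuclei (log2 -0.26 ± 0.14, edgeR adjusted p = 0.292) and was at 59.7 and 59.2 CPM in WT, against 281 and 278 CPM in KI CA1 nuclei. Flt3, a receptor tyrosine kinase, fell by 1.01 in granule nuclei and rose by 1.59 in CA1 nuclei. Bdnf, too, differed between the classes (difference 1.89 ± 0.13), with 46.1 and 46.4 CPM in WT, against 38.0 and 28.9 CPM in KI CA1 nuclei.

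**Figure D3:**
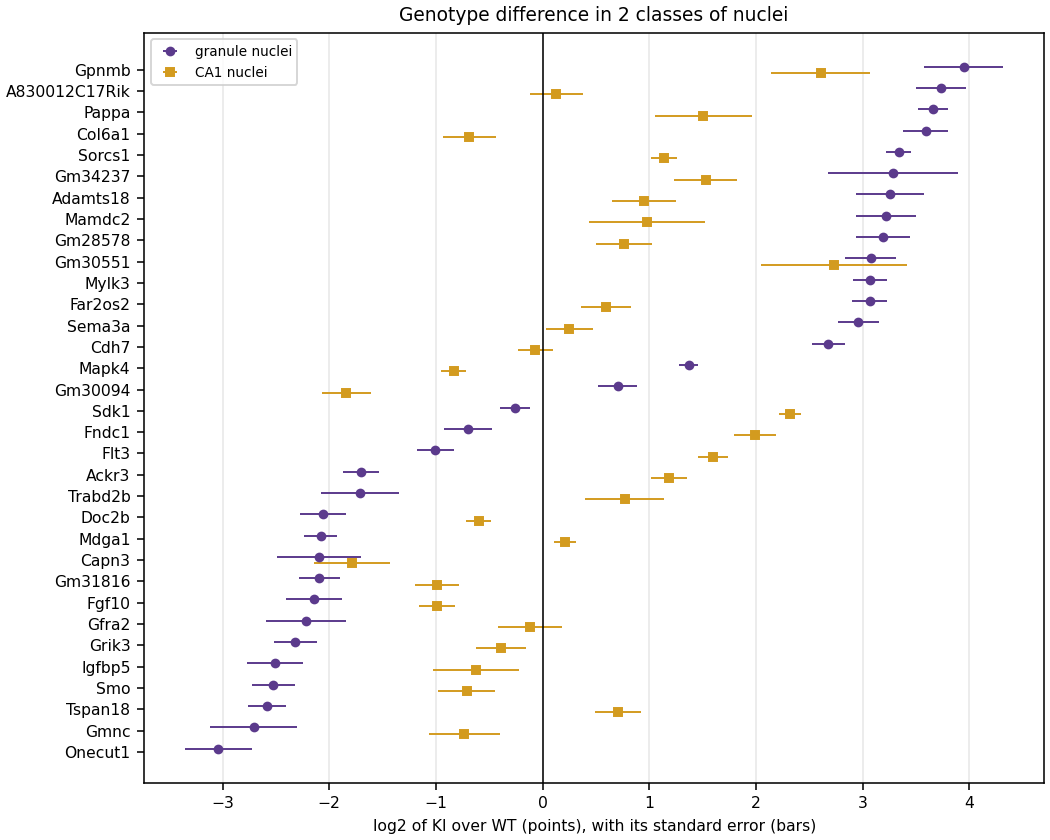
Log2 of KI over WT with its standard error in granule nuclei (circles) and CA1 nuclei (squares) for the genes named by the fixed rule of size. Gpnmb has large values in both classes (3.95 and 2.61), while Col6a1, Tspan18, Ackr3 and Mapk4 have opposite signs in the 2 classes. Mylk3 and Onecut1 were not tested in CA1 and have no square.

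The number of nuclei that carried a transcript was compared after each nucleus had been thinned to 1500 UMIs, beside oligodendrocyte nuclei as a measure of background RNA. Unc5d was detected in 19.0% and 21.8% of WT granule nuclei and in 65.3% and 57.2% of KI granule nuclei, against 15.6% and 14.5% of WT and 18.7% and 30.4% of KI oligodendrocyte nuclei. Bdnf was detected in 7.81% and 7.66% of WT and 20.5% and 20.5% of KI granule nuclei, against 5.24% and 1.82% of WT and 5.83% and 6.09% of KI oligodendrocyte nuclei. Before thinning, median depths were 4234 to 4900 UMIs in granule and 1694 to 2377 UMIs in oligodendrocyte nuclei. Both genes were therefore found in a larger share of granule nuclei in KI than in WT, with no overlap between libraries, and in KI this share was above that of oligodendrocyte nuclei of the same library. The oligodendrocyte shares were larger in KI too.

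Among genes that fell, Dcc was detected in 70.8% and 70.4% of WT and 22.4% and 30.1% of KI granule nuclei, Calb1 in 18.9% and 19.2% of WT and 4.64% and 7.69% of KI granule nuclei, and Itpr1 in 38.9% and 39.2% of WT and 6.80% and 13.6% of KI granule nuclei. The share of oligodendrocyte nuclei was 27.9% to 48.9% for Dcc, 3.79% to 7.13% for Calb1 and 12.9% to 21.8% for Itpr1. In the same KI libraries, oligodendrocyte nuclei held Dcc in 27.9% and 41.5% and Itpr1 in 12.9% and 16.9%. These were above the granule shares, so the KI granule shares of Dcc and Itpr1 cannot be told from background. For Calb1 they held 3.79% and 3.88%, below the granule shares of the same libraries. Penk was detected in 0.851% and 0.428% of WT and 4.33% and 5.17% of KI granule nuclei, against 1.37% and 1.39% of WT and 4.47% and 3.46% of KI oligodendrocyte nuclei. Npy was detected in 2.29% and 2.17% of WT and 4.48% and 5.83% of KI granule nuclei, against 3.57% and 3.54% of WT and 8.20% and 5.98% of KI oligodendrocyte nuclei. The shares of both peptide genes were thus larger in KI in both kinds of nuclei. Within a library, the granule share was above the oligodendrocyte share only for Penk in KI replicate 2. Scg2 was in 13.1% and 13.3% of KI granule nuclei, against 14.4% and 8.92% of oligodendrocyte nuclei of the same libraries, and Chgb in 19.1% and 20.3%, against 21.1% and 20.5%. Among genes that fell, Cck was in 12.9% and 14.1% of WT and 6.90% and 9.74% of KI granule nuclei, against 19.4% and 19.0% of WT and 11.5% and 13.1% of KI oligodendrocyte nuclei. Arc was in 0.704% and 0.463% of WT and 0.309% and 0.0502% of KI granule nuclei, against 1.75% and 1.82% of WT and 0.474% and 0.210% of KI oligodendrocyte nuclei. For Nr4a3, WT oligodendrocyte nuclei held 2.20% and 2.36%, above the 1.47% and 1.25% of WT granule nuclei, and the shares were smaller in KI in both. Where a share is at or below that of oligodendrocyte nuclei of its library, it cannot be told from background. The part of free RNA in the changes of Penk, Npy, Scg2, Chgb, Cck, Arc, Homer1 and Nr4a3 was not tested. The same limit holds for Camk2d, Pcdh15, Fgfr1, Grin3a and Hspa8, whose granule shares were below the oligodendrocyte shares in every library. Camk2d was in 10.6% and 15.2% of KI granule nuclei, against 15.6% and 17.1% of KI oligodendrocyte nuclei. Hspa8 was in 13.2% and 19.8%, against 15.9% and 25.1%. The genes given here are not a full list of such cases. For Sorcs1, at 34.4% and 28.2% of KI granule nuclei, oligodendrocyte nuclei gave 50.5% to 65.6%, so this comparison cannot tell its granule shares from background either.

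**Figure D4:**
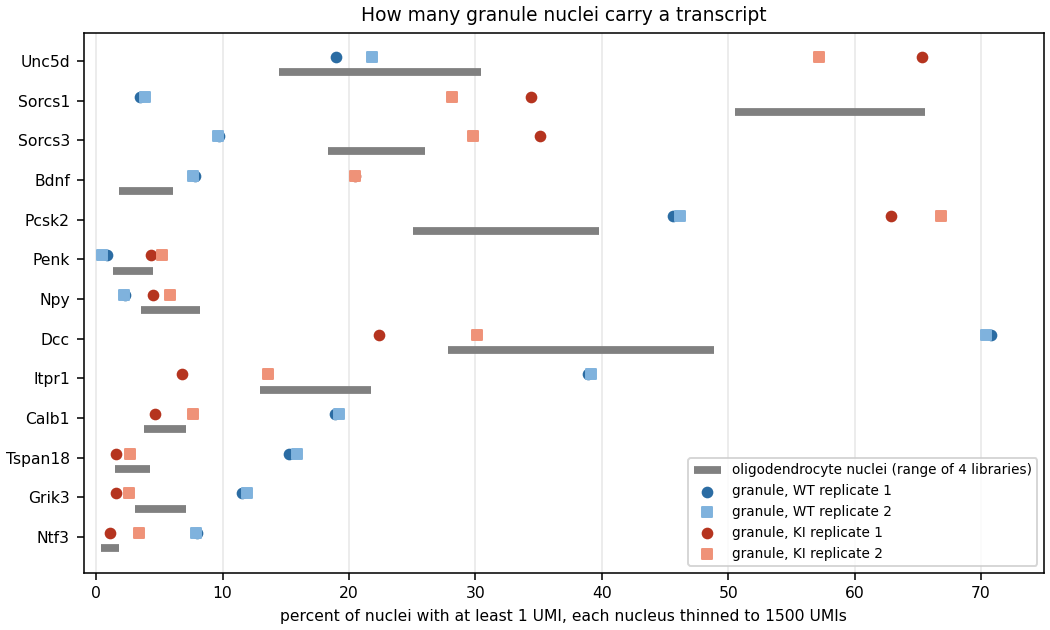
Percent of granule nuclei with at least 1 UMI of a gene (points, 1 per library) after thinning to 1500 UMIs, and the range over the 4 libraries in oligodendrocyte nuclei (grey bars). Unc5d moves from 19.0% and 21.8% in WT to 65.3% and 57.2% in KI, and Dcc from 70.8% and 70.4% to 22.4% and 30.1%.

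To show how the changes were spread over nuclei, the UMIs of genes that rose were expressed as a percent of the UMIs of genes that rose or fell, in each thinned nucleus. The genes, at least 2-fold changed, were taken from a fit that left out the KI library to be examined, so that this library did not choose them (Malat1 and the genes of the rule were left out). With 1116 higher and 1070 lower genes chosen without KI replicate 2, the median was 29.6% and 29.5% in the WT libraries, which helped choose the genes, and 65.8% in KI replicate 2. In KI replicate 2, 67.5% of nuclei lay above the upper end of the central 95% of WT nuclei (60%). With 568 higher and 313 lower genes chosen without KI replicate 1, the median was 85.4% in KI replicate 1, and 80.0% of its nuclei lay above the WT limit of 76.3%.

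Most nuclei of the KI library held out of the choice of genes thus lay above the WT limit. A percent rests on a median of 37 UMIs of the chosen genes per nucleus in KI replicate 1 and 73 in KI replicate 2, so a nucleus within the limit cannot be told at this depth from one that moved. In KI replicate 2 the nuclei within the WT limit made up 32.6%, and their share was alike among nuclei with exactly 3 markers (32.1%) and with at least 4 (32.9%). These nuclei had a median of 4971 UMIs, against 4465 for the others. In KI replicate 1 the nuclei within the limit were 20.7% of those with exactly 3 markers and 19.4% of those with at least 4. The nuclei of a library come from 1 mouse and are not replicates.

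**Figure D5:**
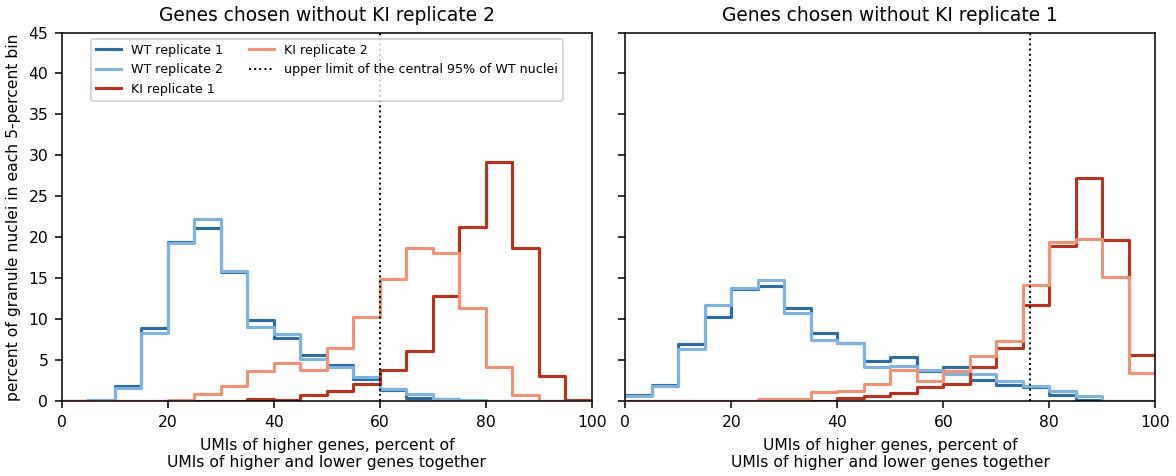
Distribution over granule nuclei of the UMIs of genes higher in KI, as a percent of the UMIs of genes higher or lower in KI (horizontal axis), with the percent of each library's nuclei per bin (vertical axis). In the left panel the genes were chosen without KI replicate 2, whose median is 65.8%, and in the right panel without KI replicate 1, whose median is 85.4%. Dotted lines mark the upper limit of the central 95% of WT nuclei.

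Granule nuclei made up 21.4% of the barcodes of each WT library (95% exact binomial intervals 20.8% to 22.1% and 20.7% to 22.1%) and 15.5% (14.9% to 16.1%) and 14.7% (14.1% to 15.3%) of the KI libraries. The KI libraries lay below both WT libraries, with an exact two-sided permutation p of 0.333, the smallest possible. Thinned to 1500 UMIs per barcode, the shares were 10.9% and 9.86% in WT and 6.60% and 6.27% in KI. The intervals cover counting error only. Since the rule rests on detected markers, of which Dsp, Prox1 and Glis3 had less and Stxbp6 and C1ql2 more CPM in both KI libraries than in WT, fewer granule nuclei, more nuclei of other types and fewer detected markers cannot be told apart in these shares.

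Markers of other cells were followed in the granule nuclei beside these results. Of 8 markers each, 1 astrocyte marker (Slc4a4) and 1 microglial marker (P2ry12) fell and 0 rose, and no oligodendrocyte marker and none of 6 tested vascular markers passed edgeR's test (1 and 0 passed DESeq2's, 2 and 1 had an unadjusted p under 0.05). The astrocyte list summed to 1084 and 1068 CPM in WT, against 616 and 747 CPM in KI, of which Slc4a4 and Slc1a2 made most. The microglial list summed to 189 and 186 CPM in WT, against 148 and 174 CPM in KI, and the oligodendrocyte list to 694 and 495 CPM in WT and to 590 and 662 CPM in KI. Of 6 tested CA3 markers 0 passed edgeR's test, 1 passed DESeq2's and 3 had an unadjusted p under 0.05, and of 4 mossy cell markers 1 fell. The CA3 list summed to 533 and 541 CPM in WT, against 655 and 570 CPM in KI, and the mossy cell list to 116 and 134 CPM in WT, against 100.8 and 158 CPM in KI. No marker of these lists was at 0 in all libraries. CA1 markers summed to 810 and 754 CPM in WT, against 1037 and 1087 CPM in KI granule nuclei, where 2 of 6 rose and 1 fell, against 5320 to 6925 CPM in CA1 nuclei. Of 7 genes common in free RNA 1 rose and 0 fell, with a median log2 difference of 0.17 and a lowest value of -0.23. Ptgds, the gene that rose, was at 103 and 86.2 CPM in WT, against 287 and 172 CPM in KI (log2 1.42 ± 0.26). Apod was at 49.5 and 28.7 CPM in WT, against 293 and 75.6 CPM in KI (edgeR adjusted p = 0.0729). Gpnmb was detected in 5.72% and 4.22% of KI granule nuclei against at most 1.02% of oligodendrocyte nuclei. Apart from P2ry12, which fell and has the highest CPM of the microglial list in each library, 7 of the 8 microglial markers did not pass the test, the list's median log2 difference was 0.22, and C1qc was at 4.89 and 4.15 CPM in WT, against 7.47 and 7.69 CPM in KI (log2 0.87 ± 0.21, edgeR adjusted p = 0.061). The part of microglial RNA in the Gpnmb result was not tested. The part of free RNA in the other results was not tested.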

How the data were processed

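Nuclei from the hippocampi of 4 mice were sequenced as single-nucleus libraries. Per the labels, the authors aligned reads to mm10 and made gene-by-barcode UMI counts with Cell Ranger 7.0.1, and they deposited the filtered raw counts used here. The gene annotation, the use of intronic reads and the use of strand are not given in the sources used here. A minimum of 500 genes and a mitochondrial share below 5% left 12555 to 15981 barcodes per library. Granule nuclei were chosen by the marker rule given above, and CA1 nuclei by its mirror, and doublets were removed only as far as the excluded genes do so. UMIs were summed per library and class, giving 10711616 to 16352467 UMIs for granule nuclei, and tested with edgeR 4.0.16 (filterByExpr, TMM factors, quasi-likelihood test, Benjamini-Hochberg adjusted p under 0.05) in R 4.3.3, 2 WT against 2 KI mice. Nuclei were not treated as replicates. CPM are UMI counts scaled to a common total per class and library. The 19 genes of the rule stayed in the fit, where 2 are among the 631 lower genes, but their tests are not used. Lists are given as counts and medians, beside those of all genes. The list of interneuron markers is not reported here.

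The genes named were the 12 with the largest rise and the 12 with the largest fall among called genes with a mean of at least 10 CPM and no overlap of the genotypes, the 5 in each direction with the largest interaction between class and genotype among genes with a mean of at least 10 CPM in both classes, and members of the gene lists. The members and the lists were chosen with earlier results of these data known. Single values per library were compared by exact permutation. Gene positions came from GENCODE M21 (GRCm38), in which 32235 of 32285 gene IDs were matched, and promoters from RefSeq. Alternatives were library totals, DESeq2 1.42.0 and its size factors, no filter, other marker thresholds, Scrublet, equal depth, a replicate block and leaving out each library. The fit without Malat1, the leave-one-out values of the share and the balance within nuclei were chosen after seeing the data. Scripts were tested on simulated data.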

Additional observations from a re-analysis of the deposited data

Results flagged for a closer look

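For the genes named in the text, the response to genotype was compared between granule and CA1 nuclei of the same libraries by edgeR's interaction of class and genotype. Of the 96 named genes tested, 67 had an adjusted p under 0.05, but many of the 96 were chosen for a large change in granule nuclei and 10 for the size of this difference, so the count is fixed in part by the choice. With 2 libraries in a group no test for a library far from the others was possible. The values in brackets are the log2 of KI over WT in granule nuclei minus that in CA1 nuclei.

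The difference was above 0 for 38 genes. It was largest for Col6a1 (4.29), A830012C17Rik (3.62), Cdh7 (2.75), Sema3a (2.73), Gm30094 (2.56), Far2os2 (2.49), Gm28578 (2.45), Adamts18 (2.30), Mapk4 (2.22), Sorcs1 (2.22), Mamdc2 (2.20), Pappa (2.19) and Grm3 (1.95). It was smaller for Bdnf (1.89), Penk (1.85), Gm34237 (1.70), Unc5d (1.55), Rgs4 (1.42), Pcdh7 (1.39), Grm8 (1.38), Spock3 (1.31), Sema3e (1.26), Sorcs3 (1.19), Egr1 (1.05), Nptx2 (1.04) and Camk2d (1.03). The smallest values were those of Scg2 (0.99), Ier5 (0.94), Ntng1 (0.89), Pcsk2 (0.80), Nr4a3 (0.73), Dcx (0.71), Homer1 (0.61), Kcnip4 (0.54), Gria3 (0.52), Kcnma1 (0.47), Gabrb2 (0.45) and Pam (0.41).

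The difference was below 0 for 29 genes. It was furthest below 0 for Tspan18 (-3.29), Spata13 (-2.89), Ackr3 (-2.88), Fndc1 (-2.69), Flt3 (-2.60), Sdk1 (-2.56), Trabd2b (-2.49), Mdga1 (-2.28), Il16 (-2.20), Gfra2 (-2.15), Gmnc (-2.04), Grik3 (-1.95), Igfbp5 (-1.89), Kcnh5 (-1.85) and Smo (-1.81). It was nearer to 0 for Sorcs2 (-1.79), Ryr1 (-1.73), Itpr1 (-1.47), Doc2b (-1.46), Ntf3 (-1.35), Calb1 (-1.25), Fgf10 (-1.16), Gm31816 (-1.10), Nrp1 (-1.10), Fgfr1 (-1.07), Slit1 (-0.91), Dcc (-0.84), Zbtb20 (-0.66) and Gabrg3 (-0.62). In Sdk1, Fndc1, Gm30094 (antisense, of uncertain count) and Egr1 the granule nuclei alone did not pass the test and the CA1 nuclei did, and the value of Egr1 goes with a fall in CA1 nuclei. In Homer1 and Nr4a3, which fell in granule nuclei, the positive value states a smaller fall there than in CA1 nuclei.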

How the results depend on the processing

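Each genotype had 2 mice, and the number of called genes depended on which library was left out, when a lone library was assumed to vary like the others. It ranged from 266 to 6975 for all calls, from 135 to 3583 for genes higher in KI, from 131 to 3392 for genes lower in KI and from 360 to 2610 for the interaction of class and genotype. Of the 1276 called genes outside the rule, 1274 could be tested without WT replicate 1 and without WT replicate 2. All of them kept their direction, and 263 and 333 remained called. Among 106 genes named or listed for the text, 36 and 27 lost their call in these fits, while 6 and 7 gained one without KI replicate 1 and without KI replicate 2.

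The other alternatives gave between 1119 (equal depth) and 1785 (no low-count filter) called genes, with 1445 by DESeq2, 1323 with library totals and 1295 without nuclei of high Scrublet scores. With a replicate block the count was 2403, of which 1246 were higher and 1157 lower in KI. The replicate numbers are only shared names: with 2 numbers the correlation of the deviations of same-numbered libraries was 0.006. Named genes lost their call with at least 2 of 6 markers (13), library totals (5), no limit on Gad1 and Gad2 (4), DESeq2 (2), at least 4 of 6 markers (1) and equal depth (1). Sdk1, not called in granule nuclei, was at 0.24 with at least 2 of 6 markers, and Cyfip2, not called, was at -0.0901 with library totals and between -0.0741 (without KI replicate 1) and 0.143 (without KI replicate 2) when a library was left out. The cause was not tested. The log2 difference in the share of granule nuclei was -0.50 and lay between -0.69 and -0.40 under the alternatives.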
